A study of Drosophila melanogaster with 8 samples.

Results

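The 10 genes described here, ndl, pip, gd, snk, ea, spz, Tl, trk, tor and tsl, are maternal genes that set the dorsal-ventral axis and the 2 ends of the fly embryo. They were found by their symbols in the authors' deposited table of 11397 genes, and all 10 also had a row in the deposited table of 14094 genes with abundances in TPM (an abundance per length, so that levels of different genes may be compared). RNA was measured in ovaries of Drosophila melanogaster females aged 4 to 5 days, with about 35 ovaries pooled for each library. The labels call the tissue ovaries enriched for GSCs (germline stem cells) and the cell type GSC-like cells. There were 4 libraries with the genotype Control, without added Stonewall (Stwl), and 4 with the genotype Stwl overexpression, which carry StwlEY in their titles. Both groups share the enrichment for stem-like cells. How it was made, and the driver of Stwl, are not given in the sources here, nor is it said whether the groups share a background or whether replicates came from separate crosses. P-values therefore measure the spread between these libraries, and strain and Stwl cannot be told apart.

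In the dorsal-ventral system, follicle cells around the oocyte leave a ventral mark in the eggshell. After the egg is laid, a chain of serine proteases made by the germline is set off over that mark and cuts the ligand Spätzle, which then binds the receptor Toll in the membrane of the embryo. In the terminal system, follicle cells at both ends of the egg supply Torso-like, which allows the ligand Trunk to bind the receptor tyrosine kinase Torso at the poles. The RNAs are made in the ovary, long before the signals act.

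The genes lie apart in the genome (positions from the Ensembl annotation of assembly BDGP 6). On chromosome 3R lie snk (13040165 to 13042770, minus strand), ea (15328729 to 15330408, plus strand), tsl (21778114 to 21782536, minus strand), Tl (26799041 to 26842403, plus strand) and spz (27064990 to 27070070, minus strand). On 3L lie ndl (6593938 to 6603366, minus strand) and pip (19298623 to 19337609, minus strand). The remaining genes are trk on 2L (10271443 to 10272324, minus strand), tor on 2R (7705183 to 7709184, minus strand) and gd on X (11985154 to 11987764, minus strand). Their structures differ widely. The gene trk has 1 annotated transcript with 1 exon of 882 bases, whereas pip spans 38987 bases with 11 annotated transcripts of 5 to 7 exons, and spz has 8 transcripts. The deposited values are per gene, so transcripts were not told apart.

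The overexpression could be seen in stwl, at 25.1, 21.9, 23.6 and 23.5 TPM in controls 1 to 4 and at 45.5, 55.5, 62.6 and 67.8 TPM in the overexpression libraries in the same order. The pigment gene y differed as well, at 0 to 0.0625 TPM in controls and 1.92 to 3.37 TPM with overexpression, whereas w, an eye colour gene, overlapped. Germline markers were present in every library, with a summed level of 1154 to 1250 TPM in controls and 892 to 1231 TPM with overexpression over 9 genes. The libraries were not made of germline alone. Vitelline membrane and yolk genes, which follicle cells of growing egg chambers express, summed to 96942 to 139827 TPM in controls and 86014 to 133104 TPM with overexpression. Markers of late follicle cells (9 chorion genes), muscle sheath (12 genes) and hemocytes (7 genes) had higher sums in every overexpression library than in any control. Overexpression replicate 1 stood apart in osk, a posterior determinant RNA of the growing oocyte, at 25.9 TPM against 0.34 to 1.52 TPM in the other libraries. Control 3 stood apart from the other controls in chorion genes, with a sum of 802 TPM against 112 to 269 TPM. The number of reads behind each library cannot be read from TPM.

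Among these genes 1 rose and 1 fell. The sulfotransferase gene pip was higher and the Torso ligand gene trk was lower with Stwl overexpression at an adjusted p of 0.05. The test was limma on log2(TPM + 1), run on all 8898 genes whose mean reached 1 TPM, and p-values were adjusted over all of them. Of the 9 patterning genes tested, 2 were called, and 8.38% of all tested genes were (6.2% higher and 2.18% lower). With so few genes this is a description of single genes and not of the set. The median log2 fold change of the 9 was -0.26, against 0.01 over all tested genes, with 4 values above and 5 below 0. The gene snk did not reach 1 TPM and had no limma test. The groups did not overlap for pip and trk, and they did not for 16% of all tested genes (10.3% higher and 5.64% lower).

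**Figure D1:**
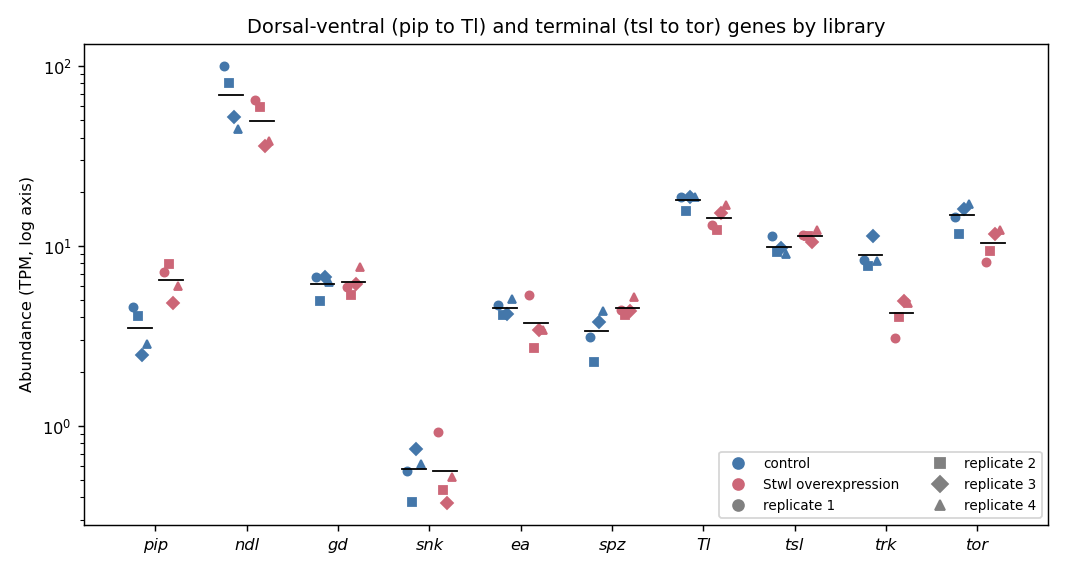
Abundance of the 10 genes in TPM on a log axis, with 1 point for each library, symbols for replicates 1 to 4, and a bar at each group mean (4 controls, 4 overexpression libraries). The groups are apart for pip and trk and overlap for the other 8 genes.

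The levels spanned about 2 orders of magnitude. In controls ndl was highest at 69.3 ± 25.6 TPM, followed by Tl at 17.9 ± 1.53, tor at 14.8 ± 2.37, tsl at 9.85 ± 1.01 and trk at 8.89 ± 1.62 TPM (SD, n = 4 each). Below these were gd at 6.17 ± 0.844, ea at 4.53 ± 0.462, pip at 3.49 ± 0.98, spz at 3.38 ± 0.905 and snk at 0.574 ± 0.153 TPM (SD, n = 4 each). Libraries of neighbours in this order did not overlap between ndl and Tl, tor and tsl, trk and gd, and spz and snk, and they overlapped between the others. With overexpression the order changed in the middle. There tsl, at 11.4 ± 0.704 TPM, stood above tor, at 10.4 ± 1.95 TPM (SD, n = 4 each), with overlapping libraries, although tor had been above tsl without overlap in controls. Likewise pip, at 6.47 ± 1.36 TPM (SD, n = 4), stood above gd with overlapping libraries, and spz stood above ea. The gene trk moved down, to 4.22 ± 0.871 TPM (SD, n = 4). It had been above gd, pip and spz in controls and stood below them with overexpression, while it stayed above ea. Libraries overlapped between spz and trk and between trk and ea, but not between gd and spz. In mean TPM, ndl lay at the 74.9th percentile of all tested genes, and the other 8 tested genes lay between the 13.7th (spz) and the 32.9th (Tl).

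The follicle cells contribute pip, ndl and tsl. The gene pip encodes a sulfotransferase of the Golgi that is made in ventral follicle cells and places the ventral mark in the eggshell. It was at 4.55, 4.07, 2.48 and 2.86 TPM in controls 1 to 4 and, in overexpression replicates 1 to 4, at 7.13, 7.93, 4.81 and 6.01 TPM. Every overexpression library was above every control, though overexpression 3 lay close to control 1. On the log2(TPM + 1) scale the rise was 1.67-fold (95% interval 1.24 to 2.25; log2 fold change 0.74, standard error 0.189, adjusted p 0.043 in limma). The 2-sided exact permutation p over the 8 libraries was 0.0286, the smallest that 4 against 4 samples allow. This limma call is narrow. It ended when any of control 2, control 3, control 4, overexpression 1, overexpression 2 or overexpression 4 was left out, with an adjusted p of 0.0617, 0.106, 0.119, 0.0637, 0.128 and 0.0739 in that order. It also ended with scaling by median of ratios, with quantile normalization and with no filter on low values (adjusted p 0.0557, 0.0999 and 0.0731). The authors' deposited table marks pip as Up (log2 fold change 0.87, standard error 0.266, adjusted p 0.0087). The annotated pip shares 208 bases at its 3' end with fal, on the other strand, at 41 to 47.8 TPM in controls and 30.7 to 45.8 TPM with overexpression.

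In these bulk samples, more cells of a type and more RNA per cell cannot be told apart. Among the 10 general follicle cell markers 8 were tested, 3 with a positive and 5 with a negative log2 fold change (median -0.12). Only 1 was called higher, where 6.2% of all tested genes were. This was mirr, a homeobox gene whose product represses pip on the dorsal side. Its level went from 11.6 ± 0.607 to 15.8 ± 2 TPM (SD, n = 4 each; adjusted p 0.0327 in limma, log2 fold change 0.41), so mirr and pip were higher together. The mirr call was lost when any 1 of the libraries other than overexpression 1 was left out. The summed level of the follicle cell list was 235 to 321 TPM in controls and 238 to 287 TPM with overexpression. Chorion genes were higher with overexpression, as pip was, with 8 of 9 called higher and summed levels of 112 to 802 against 1518 to 7031 TPM. That count was 5 without overexpression 1 and 2 without control 1, control 2, control 4, overexpression 3 or overexpression 4. Within groups pip and the chorion sum did not keep the same order. Control 3 had the lowest pip of the controls, at 2.48 TPM, and the highest chorion sum. Overexpression 2 had the highest pip of its group, at 7.93 TPM, and the lowest chorion sum. Muscle sheath and hemocyte genes were higher too, with 10 of 12 and 5 of 7 called higher and no marker of either list at 0. The sums were 2396 to 3250 against 3996 to 4907 TPM for muscle and 41.7 to 53 against 73.3 to 98.7 TPM for hemocytes. For fat body, none of 5 tested genes was called in limma or in the authors' deposited table, and 2 had an unadjusted p under 0.05. The part of these cells in the value of pip was not tested.

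The gene ndl encodes Nudel, a large protease that follicle cells secrete and that starts the protease chain. It was at 100.3, 80, 52.3 and 44.8 TPM in controls 1 to 4 and, in overexpression replicates 1 to 4, at 65.1, 59.1, 36.1 and 38.3 TPM. The groups overlapped, and within each group replicates 1 and 2 were above replicates 3 and 4. The same split held for the vitelline membrane and yolk sum, at 139827, 136313, 96942 and 109736 TPM in the controls and 133104, 123930, 86014 and 91353 TPM in the overexpression libraries. It held for pip as well. None of the 9 vitelline membrane and yolk genes passed in limma, at an unadjusted p under 0.05 or in the authors' deposited table. For ndl the log2 fold change was -0.45 with a 95% interval of -1.07 to 0.18 (adjusted p 0.418 in limma). This result depended on the design. With the replicate number as a block, ndl passed (adjusted p 0.0179 in limma), but the labels do not say that the numbers mark a shared origin. The coefficient of variation of ndl among controls was 36.9%, the highest of the 10 genes, against 8.56% for Tl. The labels give no batch.

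The gene tsl encodes Torso-like, which polar and border follicle cells secrete at the ends of the egg. Its level was 11.3, 9.3, 9.73 and 9.06 TPM in the controls and 11.5, 11.4, 10.5 and 12.2 TPM with overexpression. Control 1 overlapped the overexpression range while the other 3 controls lay below it. The log2 fold change of 0.19 did not pass (95% interval -0.01 to 0.40, adjusted p 0.265 in limma). The deposited table lists tsl as upregulated in another study, whose conditions the file does not give; it is the only 1 of the 10 genes so listed, against 21.2% of all genes in the table.

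**Figure D2:**
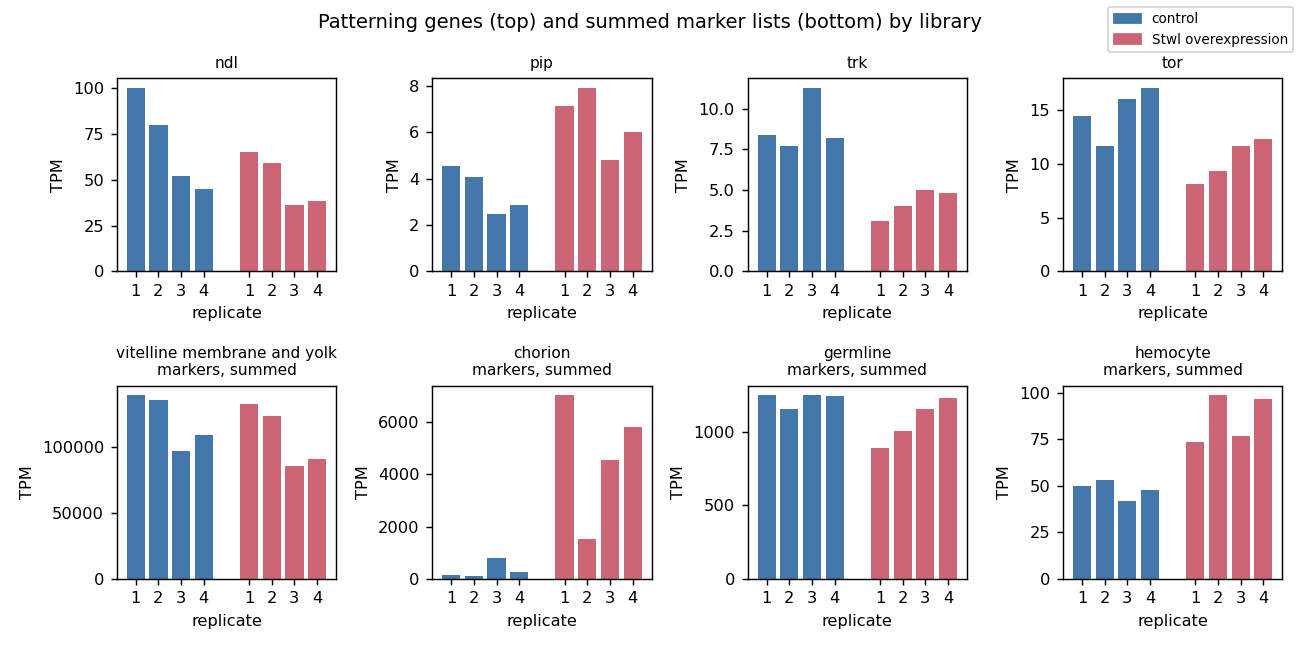
Abundance in TPM (y axes from 0) of ndl, pip, trk and tor in the upper row and summed abundance of 4 marker lists in the lower row, with 1 bar for each replicate of controls and overexpression libraries. Replicates 1 and 2 are above replicates 3 and 4 in both groups for ndl, pip and the vitelline membrane and yolk sum, and the hemocyte and chorion sums are higher in every overexpression library than in any control.

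The protease genes gd, snk and ea are transcribed in the germline, and their products act in that order before Spätzle is cut. None passed: gd and ea were not called, and snk was not tested in limma. The gene gd had means of 6.17 ± 0.844 and 6.26 ± 0.984 TPM (SD, n = 4 each; 95% interval of the log2 fold change -0.28 to 0.31, adjusted p 0.964 in limma). The gene snk was at 0.376 to 0.746 TPM in controls and 0.372 to 0.925 TPM with overexpression, with overlapping groups (2-sided exact permutation p 0.886). Its mean normalised count in the authors' deposited table was 15.7, the lowest of the 10 genes, against 12583 for ndl, and its log2 fold change there was -0.02 with a standard error of 0.479. The gene snk also shares 721 bases with CG11670 on the other strand, at 0.581 to 0.925 TPM over the 8 libraries.

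The gene ea encodes Easter, the protease that cuts Spätzle. It was at 4.72, 4.11, 4.21 and 5.1 TPM in the controls and, in overexpression replicates 1 to 4, at 5.31, 2.71, 3.4 and 3.4 TPM. Overexpression 1, the library with osk at 25.9 TPM, was the highest of all 8, whereas the other 3 overexpression libraries were below every control. The log2 fold change was -0.26 (95% interval -0.63 to 0.11, adjusted p 0.434 in limma). Without overexpression 1 it was -0.41, with an adjusted p of 0.0576 that still missed the threshold.

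The ligand gene spz and the receptor gene Tl had opposite signs. The gene spz was at 3.12, 2.26, 3.77 and 4.37 TPM in the controls and at 4.43, 4.15, 4.32 and 5.2 TPM with overexpression. Only control 4 reached into the overexpression range. The log2 fold change was 0.35 (95% interval -0.01 to 0.72, adjusted p 0.248 in limma). The gene Tl was at 18.8, 15.6, 18.6 and 18.7 TPM in the controls and at 13.1, 12.2, 15.1 and 16.8 TPM with overexpression. Control 2 was the lowest control, and overexpression 4 was the only overexpression library above it. The log2 fold change of -0.31 did not pass (95% interval -0.56 to -0.06, adjusted p 0.132 in limma), but it did after scaling by median of ratios or quantiles (adjusted p 0.0134 and 0.00983) and in the authors' deposited table (log2 fold change -0.36, standard error 0.0787, adjusted p 7.54e-05).

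A fold change of TPM moves with the scaling of each library, whereas the ratio of 2 genes within a library does not. Both can still move with the mix of cells in these bulk samples, and the part of that mix was not tested. The ratio of spz to Tl was 0.166, 0.145, 0.203 and 0.234 in controls 1 to 4 and 0.339, 0.34, 0.285 and 0.309 in overexpression replicates 1 to 4. Every overexpression library was above every control. It was 1.73-fold higher with overexpression (log2 difference 0.79), with a 2-sided exact permutation p of 0.0286 and the same value when adjusted over the 2 ratios computed. This smallest possible p is shared by any value whose groups do not overlap, and both ratios were chosen after the values of the genes had been seen.

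In the terminal system trk, which encodes the ligand Trunk, fell. It was at 8.39, 7.68, 11.3 and 8.21 TPM in controls 1 to 4 and, in overexpression replicates 1 to 4, at 3.08, 4.01, 4.97 and 4.82 TPM. The highest overexpression library was well below the lowest control. On the log2(TPM + 1) scale the level was 0.527 of that in controls (95% interval 0.412 to 0.673; log2 fold change -0.93, standard error 0.157, adjusted p 0.0071 in limma, 2-sided exact permutation p 0.0286). The call held in each of the 8 fits with 1 library left out, where the log2 fold change lay between -0.995 and -0.812 and the adjusted p in limma between 0.00699 and 0.0272. It was -0.81 without overexpression 1 and -0.82 without control 3, the libraries that stood apart. The authors' deposited table marks trk as Down (log2 fold change -1.12, standard error 0.192, adjusted p 2.04e-07). The mean normalised count behind that value was 101. The 3' end of trk shares 23 bases with Mulk, a neighbour on the other strand, and whether counting used strand is not stated. Mulk was at 32.4 to 36 TPM in controls and 33.4 to 35.7 TPM with overexpression.

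The receptor gene tor had the same sign. It was at 14.5, 11.6, 16 and 17.1 TPM in the controls and at 8.15, 9.34, 11.7 and 12.3 TPM with overexpression. Overexpression 3 and 4 lay just above control 2, so the groups overlapped. The log2 fold change of -0.48 did not pass the test (95% interval -0.82 to -0.14, adjusted p 0.092 in limma), but it did after scaling by median of ratios, by quantiles, or with the 20 most abundant genes left out (adjusted p 0.0129, 0.0102 and 0.0423). The authors' deposited table gives -0.56 for tor (standard error 0.117, adjusted p 4.23e-05). At an adjusted p of 0.05 that table thus called 4 of the 10 genes, pip higher and Tl, trk and tor lower, and it called 18.9% of all genes that had an adjusted p (10.5% higher and 8.4% lower). The genes it marked Up or Down were 4.81% of its genes, and pip and trk were the 2 so marked. Marked genes had an absolute log2 fold change of at least 0.6 and an adjusted p of at most 0.00985.

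**Figure D3:**
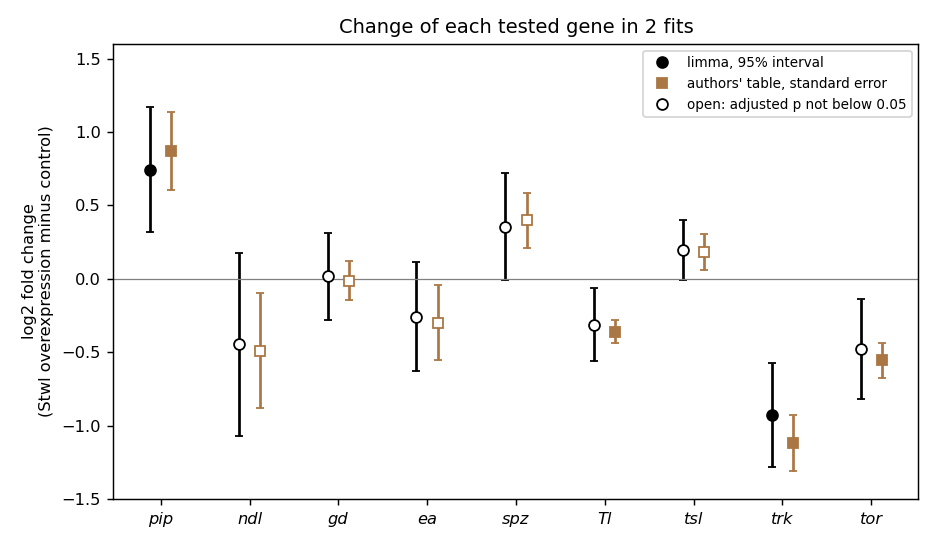
Log2 fold change (overexpression minus control) of the 9 tested genes, from limma with 95% intervals (circles) and from the authors' deposited table with standard errors (squares), filled where the adjusted p was below 0.05. Both fits call pip and trk, and the deposited table also calls Tl and tor.

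The ratio of trk to tor was 0.579, 0.66, 0.704 and 0.48 in controls 1 to 4 and 0.378, 0.429, 0.425 and 0.393 in overexpression replicates 1 to 4. It was lower in every overexpression library than in any control, at 0.677 of the control level (log2 difference -0.56, 2-sided exact permutation p 0.0286, and 0.0286 adjusted over the 2 ratios). This ratio too was chosen after the values of trk and tor had been seen, so its p-value adds no separate evidence. It describes trk RNA as lower relative to tor RNA of the same library.

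**Figure D4:**
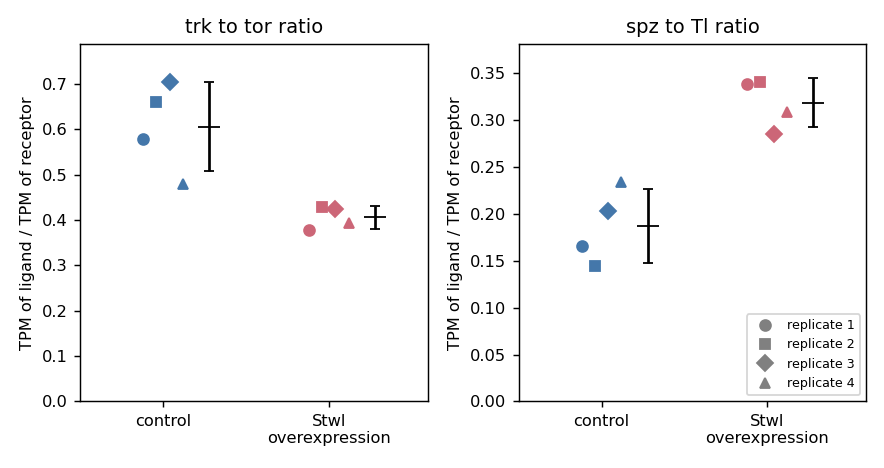
Ratio of ligand to receptor TPM in each library for trk to tor (left) and spz to Tl (right), with y axes from 0, symbols for replicates 1 to 4, and the mean and SD of 4 libraries beside each group. The trk to tor ratio is lower and the spz to Tl ratio higher in every overexpression library than in any control.

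Some germline markers were lower, as trk, tor and Tl were. Of 9 germline markers, 8 had a negative log2 fold change, as did 4097 of the 8898 tested genes. These 8 ranged from -0.41 to -0.0074, some of them close to no change, and osk was at 0.53. The median of the list was -0.19. None passed in limma, 3 had an unadjusted p under 0.05, and 4 were lower in the authors' deposited table. The settings that gave calls to tor or Tl gave calls to germline markers as well, with 4 called in limma after median-of-ratios scaling, 3 after quantile normalization, 3 with library weights and 2 without the 20 most abundant genes. The part of the germline share in the values of trk, tor and Tl was not tested. The scaling given next is no such test, since it also moved the values of all tested genes. When each library was scaled by these markers, a setting added after the data had been seen, the median of all tested genes shifted from 0.01 to 0.15. On that scale the log2 fold change was -0.81 for trk, -0.35 for tor and -0.18 for Tl (adjusted p 0.00215, 0.0269 and 0.0468 in limma). On the same scale pip, spz and tsl were higher, with log2 fold changes of 0.86, 0.47 and 0.32 (adjusted p 0.0207, 0.0368 and 0.0333 in limma), while calls over all tested genes were 92.3% higher. When libraries were scaled by the vitelline membrane and yolk markers, which spread widely within each group, trk had a log2 fold change of -0.83 and was not called (adjusted p 0.245 in limma), nor was any other of these genes.

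Profiles most like those of the called genes were found by the root mean square difference of log2(TPM + 1), standardized over the 8 libraries. For pip they were cry, PPO2 and Hexo2, with differences of 0.198, 0.218 and 0.227. PPO2, a prophenoloxidase gene of hemocytes and a marker in the hemocyte list, went from 8.79 ± 2 to 17.7 ± 3.37 TPM (SD, n = 4 each). Standardizing removes the size of a change. The log2 fold changes of cry and Hexo2 were 0.40 and 0.48, and neither was called (adjusted p 0.0914 and 0.0573 in limma). For trk they were CG15047, RhoGAP5A and CG42340, with differences of 0.174, 0.194 and 0.198. CG15047 went from 13.3 ± 2.97 to 6.98 ± 0.99 TPM (SD, n = 4 each), with a log2 fold change of -0.83 beside -0.93 for trk. Those of RhoGAP5A and CG42340 were -0.19 and -0.36, and neither was called (adjusted p 0.112 and 0.0857 in limma).

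Other genes of both pathways were taken from fixed lists. Downstream of Toll, none of 11 cytoplasmic genes passed in limma, 1 had an unadjusted p under 0.05, and Dif was higher in the authors' deposited table. The most abundant was lwr, for a SUMO-conjugating enzyme, at 339 ± 7.12 and 330.2 ± 21.6 TPM (SD, n = 4 each). The NF-kappaB gene dl was at 17.7 ± 1.34 and 18.3 ± 3.43 TPM, and its inhibitor gene cact at 93.3 ± 2.82 and 102.8 ± 13.5 TPM (SD, n = 4 each). None of 5 genes that act with pip or control the proteases passed in limma, at an unadjusted p under 0.05 or in the authors' deposited table. Among them wbl, whose product Pipe needs to leave the endoplasmic reticulum, was at 44.1 ± 9.96 and 42.5 ± 12.3 TPM, and Spn27A, the serpin that restrains Easter, at 40 ± 4.95 and 45.8 ± 3.54 TPM (SD, n = 4 each). Papss, which makes the sulfate donor, had means of 38.3 ± 4.46 and 40.9 ± 6.05 TPM (SD, n = 4 each). The rise of pip thus stood beside partner genes whose values overlapped between groups.

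Over all tested genes 8.38% were called (6.2% higher and 2.18% lower), and counts in the short lists below describe single genes. Of 12 genes that carry the Torso signal, 1 fell. It was rl, the MAP kinase gene, at 103.2 ± 3.61 TPM in controls against 76.2 ± 9.69 TPM (SD, n = 4 each; adjusted p 0.012 in limma, log2 fold change -0.44). The authors' deposited table called 2 of the 12 lower and 1 higher. Among all its genes that had an adjusted p, it called 8.4% lower and 10.5% higher. Without overexpression 1, the count of called genes was 2 among the Torso genes and 2 among the cytoplasmic Toll genes. Of 5 genes for terminal eggshell proteins and furins, 1 fell, fs(1)M3, an eggshell gene needed for terminal signalling. Its level was 10.5, 9.42, 9.42 and 9.81 TPM in the controls and 7.63, 5.31, 5.63 and 6.73 TPM with overexpression, without overlap (adjusted p 0.0154 in limma, log2 fold change -0.57). The call was lost without control 1, control 4 or overexpression 3, and without overexpression 1 the list had 2 called genes. Its partner genes fs(1)N and clos did not pass in limma, and in overexpression 1 they stood at 4.46 and 4.8 TPM, against 2.32 to 2.6 and 0.618 to 0.896 TPM in the other overexpression libraries. As with ea and osk, this was the library that stood highest in its group.

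Of 10 genes that recognise microbes or cut Spätzle in immunity, 9 were tested, 2 rose and 1 fell. Over all tested genes 6.2% were higher and 2.18% lower. The serine protease gene Hayan went from 1.34 ± 0.278 to 3.5 ± 0.817 TPM, and the serpin gene nec, which restrains that arm, from 27.1 ± 2.5 to 36.3 ± 2.95 TPM, while the recognition gene GNBP3 went from 4.7 ± 0.484 to 2.95 ± 0.39 TPM (SD, n = 4 each). Their adjusted p-values in limma were 0.0099, 0.0212 and 0.0249. The count of 3 was 1 without control 1, overexpression 2 or overexpression 3. Of 12 paralogues of spz and Tl, only 18w and Tollo were abundant enough to be tested. Their levels were 43.5 ± 6.79 and 40.5 ± 3.71 TPM for 18w and 5.02 ± 0.422 and 5.29 ± 1.04 TPM for Tollo (SD, n = 4 each). Neither passed in limma, at an unadjusted p under 0.05 or in the authors' deposited table. Of 10 embryonic targets and repressors of the 2 systems, 6 were tested and none passed in limma, with 2 at an unadjusted p under 0.05 and 2 called without overexpression 1. The most abundant were the co-repressor gene gro, at 105 ± 8.03 and 104.7 ± 13.1 TPM, and cic, the repressor that Torso signalling relieves, at 28.7 ± 2.66 and 28.2 ± 5.45 TPM (SD, n = 4 each). The targets tll, twi and sna, which are switched on in the embryo, were at most at 0.138 TPM in any library. A further target, hkb, was at 0.175 to 0.324 TPM in controls and 0.102 to 0.796 TPM with overexpression, with overlapping groups. The target gene zen had means of 8.42 ± 0.524 and 5.37 ± 1.61 TPM (SD, n = 4 each; adjusted p 0.0861 in limma) and was lower in the authors' deposited table, as was brk.

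The authors' deposited table also marks genes with a Stwl peak at a distance of up to 1 kb, without giving the origin of the peaks. The mark is set for 8 of the 10 genes, all but gd and snk, against 73.7% of all genes in the table. The share is close to that of all genes, and pip, trk and 6 of the 7 tested genes that were not called carried the mark.

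**Figure D5:**
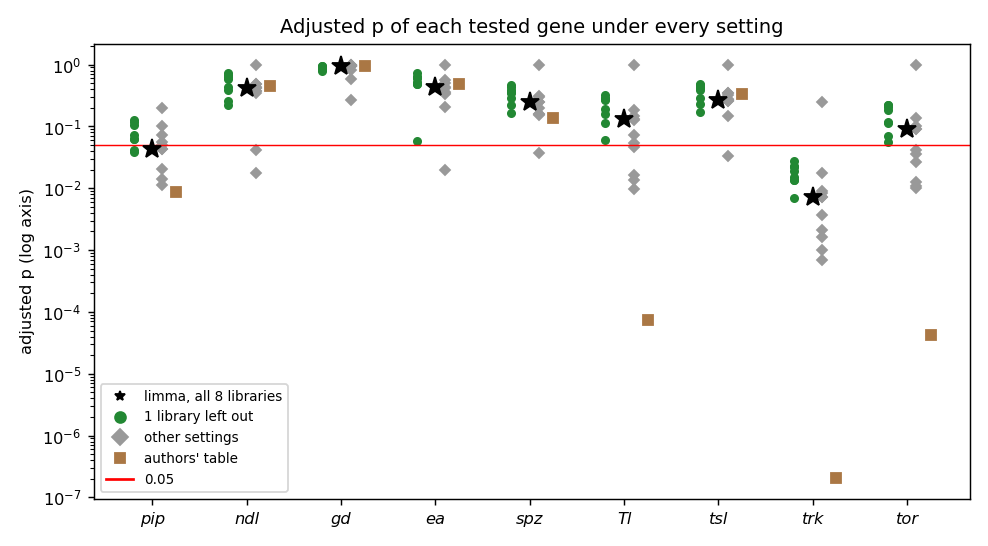
Adjusted p of the 9 tested genes on a log axis under every setting: limma on all 8 libraries (stars), with 1 library left out (circles), with other scalings, filters, pseudocounts, weights or a block (diamonds), and in the authors' deposited table (squares). The line marks 0.05. Values of trk lie below it except with vitelline membrane and yolk scaling, those of pip lie on both sides, and those of gd all lie above.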

How the data were processed

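Polyadenylated RNA, per the labels, of 8 ovary libraries was analysed. The authors deposited TPM values per gene, whose headers name a log2 TPM although each column sums to 1000000, so they were used as linear TPM. The authors also deposited their own comparison, with log2 fold changes and standard errors on the log2 scale, a test statistic as a score, raw and adjusted p-values, and a mean signal per gene (normalised counts), per the file headers. Salmon 1.10.1, DESeq2 1.37.4 and BDGP 6 are named in the submitters' processing notes, with no role given.

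Expression as log2(TPM + 1) was fitted for genes whose mean reached 1 TPM with limma 3.58.1 in R 4.3.3 (group as the only term, variance trend, Benjamini-Hochberg adjustment, threshold 0.05); a fold change on this scale understates that of low genes. The fit was tested on simulated data. No count test was run, since TPM are not counts. Single values were compared by 2-sided exact permutation over 4 against 4 libraries. Symbols came from the authors' table, else from the reference; fs(1)ph is a synonym of fs(1)M3 and was counted once. The genes and lists were chosen with earlier results of these data known. The rule named the 10 genes, stwl, y and w, called list genes (at most 4 a list) or else the 2 most abundant, and the 3 nearest profiles of each called gene. Apart from mirr, a called follicle cell marker, and PPO2, a nearest profile, marker lists are given as counts, sums and ranges instead. The genes dl, Papss, clos, fs(1)N, osk, zen, brk, Dif, tll, twi, sna, hkb, Mulk, fal and CG11670 were added after their values were seen. Alternatives were other pseudocounts, abundance minimums, scalings, library weights, a replicate block, each library left out and the authors' own fit. No sequences were used here. Python 3.11.15 with matplotlib 3.10.9 made the figures.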

Additional observations from a re-analysis of the deposited data

Results flagged for a closer look

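Tl in control replicate 2, at 15.6 TPM, lay far below the other 3 controls, which were between 18.6 and 18.8 TPM, and its gap to them took up 0.93 of the whole range of the group, above Dixon's 95% limit for 4 samples. Chance gives about 1 such value in 20 groups, and 20 groups were looked at (10 genes in 2 groups). Without control 2 the log2 fold change of Tl was -0.37, with an adjusted p of 0.115 in limma, so the side of the threshold did not change.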

How the results depend on the processing

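Over all tested genes, 552 were higher and 194 lower, and leaving out 1 library gave 336 to 988 and 99 to 248. Higher genes made up 74% of calls, 56.3% with median-of-ratios scaling, 48.1% with quantile normalization, 63.4% without the 20 most abundant genes and 55.5% in the authors' deposited table. Lower genes numbered 626 with median-of-ratios scaling, 715 with quantile normalization, 379 without the 20 most abundant genes, 893 in the authors' deposited table (1113 higher) and 804 under library weights (2293 higher). With germline marker scaling 2437 were higher, and with vitelline and yolk marker scaling 124 were higher and 30 lower. Among the patterning genes, 1 was higher and 1 lower. The higher count was 0 with no filter, a minimum mean of 5 TPM (where pip was not tested), median-of-ratios scaling, quantile normalization or vitelline and yolk marker scaling, 3 with germline marker scaling, and 0 to 1 with 1 library left out. The lower count was 3 with median-of-ratios scaling, quantile normalization, the replicate block, germline marker scaling and by the authors' deposited table, 5 under library weights, 2 without the 20 most abundant genes, 0 with vitelline and yolk marker scaling, and 1 each time 1 library was left out.

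The log2 fold change of pip lost its call at 0.74 with no filter, 0.72 with median-of-ratios scaling, 0.64 with quantile normalization and 0.83 with vitelline and yolk marker scaling, and ranged from 0.63 to 0.86 with 1 library left out. That of trk lost its call with vitelline and yolk marker scaling alone (-0.83) and ranged from -0.995 to -0.812 with 1 library left out. Calls were gained by tor with median-of-ratios scaling (-0.51), quantiles (-0.53), weights per library (-0.40), without the 20 most abundant genes (-0.51), with germline marker scaling (-0.35) and in the authors' deposited table (-0.56). Tl gained a call with median-of-ratios scaling (-0.34), weights per library (-0.26), quantile normalization (-0.36), germline marker scaling (-0.18) and in the authors' deposited table (-0.36). Library weights gave a call to ndl (-0.61) and ea (-0.33), and germline marker scaling to spz (0.47) and tsl (0.32). The sign of gd turned with median-of-ratios scaling (-0.0093), weights per library (-0.0293), quantile normalization (-0.0821) and in the authors' deposited table (-0.013), and it lay between -0.0709 and 0.0797 with 1 library left out. The cause was not tested for any of these. The log2 difference of the trk to tor ratio ranged from -0.67 to -0.49 and that of the spz to Tl ratio from 0.67 to 0.90 with 1 library left out. Both marker scalings, and leaving out libraries for the ratios, were chosen after seeing the data.

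The replicate numbers are shared between groups, but the labels do not say that they mark a shared origin. Deviations of same-numbered libraries from their group means correlated at 0.128, -0.0174, -0.134 and 0.144 across genes for numbers 1 to 4. Not every library correlated best with its own number, and the largest value was 0.271, for control 4 with overexpression 3. The numbers were therefore not taken to pair the libraries. Within both groups, ndl, pip and the vitelline membrane and yolk sum were still higher in replicates 1 and 2 than 3 and 4. With the replicate block, the calls were 576 higher and 202 lower, and ndl (log2 fold change -0.45, adjusted p 0.0179) and tor (-0.48, adjusted p 0.0359) passed in limma beside pip and trk.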
